A study of Mus musculus with 9 samples.

Results

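This account follows 46 genes of DNA replication and of the G1/S transition in mouse liver and in angiosarcoma cell lines. The genes were chosen by name, from a list of licensing factors, helicase subunits, polymerases, nucleotide enzymes, chromatin assembly factors and G1/S regulators. All 46 were measured, out of 19938 genes tested. Each gene is represented by 1 probe set, that with the highest mean where it had several, and values are log2 expression, so that 1 unit is a 2-fold difference.

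The 9 arrays fall into 3 groups of 3. WT livers came from Notch1 lox/lox mice without Cre. KO livers came from MxCre Notch1 lox/lox mice, in which an interferon-inducible Cre removes a Notch1 exon. All liver donors were of the C57Bl/6 strain. To switch on Cre, poly(I:C), which mimics viral RNA, was injected at 300 µg per dose, first at 4 weeks of age (day 0) and again on days 3 and 6, and WT mice were injected too. The AS lines are 3 separately derived lines from hepatic endothelial cells of knockout mice with a visible angiosarcoma, a tumour of vessel-lining cells, kept in culture until the population was uniform. Only the KO mice carried Cre, so Cre and loss of Notch1 cannot be told apart. The Mx promoter is not restricted to 1 cell type of the liver. In bulk RNA, fewer dividing cells and less RNA per dividing cell cannot be told apart either.

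Notch1 itself stood at 11.69, 11.02 and 11.71 in the WT livers, at 7.84, 8.75 and 8.52 in the KO livers and at 8.75, 8.61 and 7.83 in the lines, without overlap between WT and the rest. The lines went against their label in their markers: the mean of 15 endothelial genes was 5.99 to 6.31 in the lines and 11.66 to 12.22 in the livers, and the endothelial cadherin Cdh5 was at 5.45 to 5.66. Of 21 hepatocyte genes, 19 had a lower mean in the lines than in WT livers (median log2 difference -3.97) and 12 of them fell, although albumin (Alb) was still at 12.31, 13.67 and 12.82 in lines 1, 2 and 3. Of 9 bile duct genes, 4 rose and 1 fell against WT livers (median 0.11). Among them the keratin Krt19, of bile duct epithelium, was at 11.82 to 12.18 there and at most at 6.76 in any liver. The extraction protocol of all 9 samples names its source as PHH, a term the labels do not explain. The lines are therefore called AS lines by their label only, and what the cells are was not tested.

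Cells copy their DNA once per division. In G1 the origin recognition complex, Cdc6 and Cdt1 load the ring-shaped MCM2-7 helicase onto origins, a step called licensing. At the G1/S boundary cyclin E and its kinase release E2F transcription factors from pocket proteins of the Rb family, and E2F factors switch on the replication genes as a group. The kinase Cdc7 with Dbf4, and then Cdc45 and GINS, turn the loaded helicase into a moving fork, which polymerases alpha, delta and epsilon follow. Adult hepatocytes are mostly quiescent and can re-enter the cycle after injury.

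Because E2F factors act through promoter sites, the promoters of the members were searched for the E2F-type letters TTCCCGC and TTGGCGC on both strands. RefSeq windows of 300 bases, from 250 before to 50 after a start site (build GRCm38.p6), were found for 39 of the 46 genes. A match was found in 21 of the 39, or 53.8%, against 7.79% of 27025 genes with a window. The share was not particular to the members. It was 54.8% (23 of 42) in a list of other replication genes and 26.9% (7 of 26) in a list of G1/S control genes. TTCCCGC alone was in 11, TTGGCGC alone in 6 and both in 4. The 180 bases before the start are shown for 5 genes that carry matches there and whose values are described further on, and for Rrm2, which carries none in its window and had the largest difference between the lines and the livers. Matches are in capitals, and sequences read 5′ to 3′ on the strand of the gene.
Mcm5 (chr8:75109329-75109508, plus strand): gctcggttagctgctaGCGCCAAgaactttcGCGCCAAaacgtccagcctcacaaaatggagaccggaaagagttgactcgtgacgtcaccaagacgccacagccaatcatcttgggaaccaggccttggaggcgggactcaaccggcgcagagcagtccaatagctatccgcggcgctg
Mcm6 (chr1:128359706-128359885, minus strand): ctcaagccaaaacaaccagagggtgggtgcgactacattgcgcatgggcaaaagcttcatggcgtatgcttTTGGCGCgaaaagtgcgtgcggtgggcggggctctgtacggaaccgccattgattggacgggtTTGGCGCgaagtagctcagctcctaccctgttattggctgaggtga
Pola1 (chrX:93632156-93632335, minus strand): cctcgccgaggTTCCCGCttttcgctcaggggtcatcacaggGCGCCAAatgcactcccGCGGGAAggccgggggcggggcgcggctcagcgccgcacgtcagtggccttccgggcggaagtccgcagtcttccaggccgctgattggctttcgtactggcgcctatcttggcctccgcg
Chaf1a (chr17:56040236-56040415, plus strand): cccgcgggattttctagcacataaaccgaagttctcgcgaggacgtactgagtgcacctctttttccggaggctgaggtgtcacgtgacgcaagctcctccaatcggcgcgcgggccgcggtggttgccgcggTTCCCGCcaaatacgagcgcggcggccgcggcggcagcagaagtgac
E2f8 (chr7:48881597-48881776, minus strand): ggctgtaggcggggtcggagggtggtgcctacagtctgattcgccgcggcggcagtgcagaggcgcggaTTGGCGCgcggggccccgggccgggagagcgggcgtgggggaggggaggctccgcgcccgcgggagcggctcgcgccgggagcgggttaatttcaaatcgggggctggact
Rrm2 (chr12:24708074-24708253, plus strand): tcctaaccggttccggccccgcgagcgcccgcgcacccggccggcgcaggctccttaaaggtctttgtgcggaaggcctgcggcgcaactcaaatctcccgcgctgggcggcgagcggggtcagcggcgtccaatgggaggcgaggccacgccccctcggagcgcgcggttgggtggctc
Both letter runs are rich in G and C, and the GC box GGGCGG was in 76.9% of the members and 38.2% of all genes. It was as frequent in the related lists: 81% of the other replication genes, 88.5% of the G1/S control genes and 78.7% of G2 and mitosis genes. In the promoters of 47 G2 and mitosis genes the order was turned. An E2F-type match was in 10, or 21.3%, which is still above the 7.79% of all genes. TTTGAA or TTCGAA, the core of the CHR element of late cell cycle genes, was in 35, or 74.5%. These CHR-type letters were in 9 of the 39 members (23.1%) and in 21.7% of all genes. A match is a description of letters and shows no binding.

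KO and WT livers were compared for the bearing of Notch1 loss on replication genes. All 46 members had a higher mean in the KO livers, where 49.8% of all genes did, and the median log2 difference was 0.59 against -0.00 over all genes. With dim genes left out, the median was 0.58 in the 33 members kept and 0.17 over all genes kept. No member passed an adjusted p of 0.05 in limma, a linear model with moderated variances, and neither did any other gene (0%). The adjusted p of members ran from 0.104 (Chaf1a) to 0.945 (Pcna). Even Notch1, the targeted gene, did not pass, with a difference of -3.10 (SE 0.302, adjusted p = 0.0995 in limma). Before adjustment 27 members had a p under 0.05, all higher in KO, against 17.3% of all genes higher and 5.17% lower. In 19 members, or 41.3%, the lowest KO liver exceeded the highest WT liver, and 19.2% of all genes did so. The reverse was seen in 0 members, and in 11.1% of all genes.

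The KO livers were not alike. KO replicate 1 lay above every WT liver in 45 members and KO replicate 3 in 44, against 34.5% and 37.4% of all genes, and neither lay below every WT liver in any member (30.9% and 29.1% of all genes). KO replicate 2 lay above every WT liver in 19 members and below in 3, against 34.5% and 28.9% of all genes. In 43 members KO replicates 1 and 3 were both above KO replicate 2 and all WT livers, as in 23.2% of all genes; the exceptions were Mcm10, Pcna and E2f8. The median shift of the members from the WT mean was 0.85, 0.16 and 0.77 in KO replicates 1, 2 and 3, and -0.13, -0.01 and 0.13 in the WT livers. Without KO replicate 2, 28 members passed the threshold, all higher, where 8.38% of all genes were called higher. With limma's array weights, which gave KO replicate 2 a weight of 0.315 and WT replicate 1 one of 0.274, 39 members passed, all higher (19.6% of all genes).

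**Figure D1:**
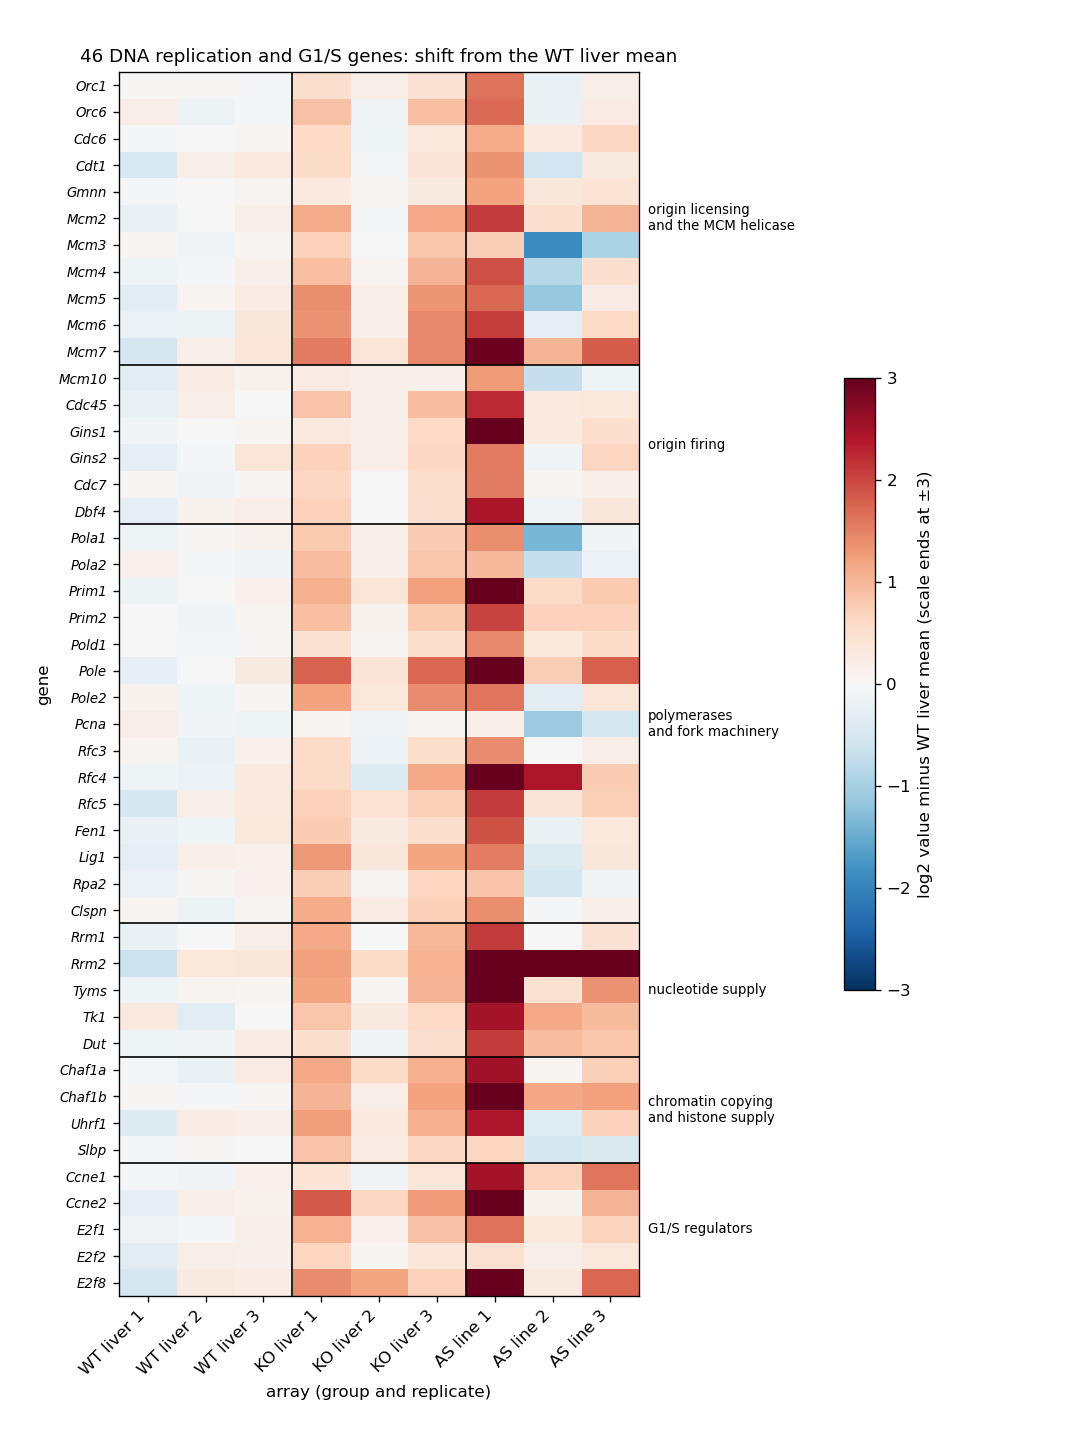
Shift of each of the 46 genes from its WT liver mean (colour, log2 units, scale ending at 3 in either direction) in the 9 arrays, with genes in rows by role. KO replicates 1 and 3 and AS line 1 are red in nearly every row (median shifts 0.85, 0.77 and 1.92), and KO replicate 2 and AS line 2 are pale or mixed (0.16 and 0.08).

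Among the licensing genes the helicase subunits Mcm7, Mcm6 and Mcm5 had the largest differences. Mcm7 stood at 7.13, 7.83 and 8.03 in the WT livers and at 9.22, 8.03 and 9.10 in the KO livers. KO replicate 2 reached only the level of the highest WT liver, and the log2 difference was 1.12 (SE 0.398, adjusted p = 0.189 in limma). Mcm6 was at 8.35, 8.37 and 8.88 in WT and at 9.89, 8.69 and 9.98 in KO livers. Mcm5 was at 8.18, 8.56 and 8.72 in WT and at 9.87, 8.68 and 9.81 in KO livers. In both, KO replicates 1 and 3 were about 2-fold above the WT livers and KO replicate 2 lay among them, with differences of 0.99 (SE 0.381) and 0.97 (SE 0.357). Mcm2, Mcm4 and Mcm3 differed by 0.74, 0.67 and 0.50, and Orc6, of the origin recognition complex, by 0.56. Orc1, the largest subunit of the origin recognition complex, was dim but tight: it was at 5.10, 5.08 and 4.99 in WT and at 5.53, 5.25 and 5.48 in KO livers, without overlap (difference 0.36, SE 0.0939, adjusted p = 0.125). The loaders Cdc6 and Cdt1 and the Cdt1 inhibitor geminin (Gmnn) had the smallest differences of the licensing genes, 0.26, 0.30 and 0.21.

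Of the 6 origin firing genes, Cdc45, a part of the active helicase, had the largest difference (0.64, SE 0.235). It stood at 6.65, 7.06 and 6.89 in WT and at 7.72, 7.02 and 7.79 in KO livers, so that KO replicate 2 lay among the WT livers. The GINS subunits Gins2 and Gins1 differed by 0.50 and 0.36, the kinase Cdc7 and its activator Dbf4 by 0.38 and 0.40, and Mcm10 by 0.20. Every KO array was above every WT array for 1 of the 6, Gins1, a share near the 19.2% of all genes.

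The fork genes included the largest difference of all 46. Pole, the catalytic subunit of the leading-strand polymerase epsilon, stood at 5.92, 6.14 and 6.42 in WT livers and at 7.93, 6.56 and 7.90 in KO livers. No KO array overlapped the WT range, although KO replicate 2 exceeded it by little, and the difference was 1.30 (SE 0.402, adjusted p = 0.154), or 2.46-fold. Its partner subunit Pole2 was at 6.67, 6.45 and 6.60 in WT and at 7.77, 6.90 and 7.98 in KO livers, also without overlap (0.98, SE 0.289). The primase subunit Prim1 (0.88), the ligase Lig1 that seals Okazaki fragments (0.94), the checkpoint mediator Clspn (0.69) and both subunits of polymerase alpha, Pola2 (0.64) and Pola1 (0.57), were separated in the same way. In all, 10 of the 15 fork genes did not overlap between the groups, all higher, where 19.2% of all genes were. Differences between roles were not tested. Pcna, the sliding clamp of the polymerases, stood apart from the other members. It was bright in all livers, at 12.09, 11.82 and 11.76 in WT and at 11.97, 11.78 and 11.96 in KO. These ranges overlapped fully (difference 0.02, SE 0.114). Its difference was -0.17 with 75th percentile scaling, where the median of all genes was -0.18. Its second probe set gave a difference of 0.01.

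**Figure D2:**
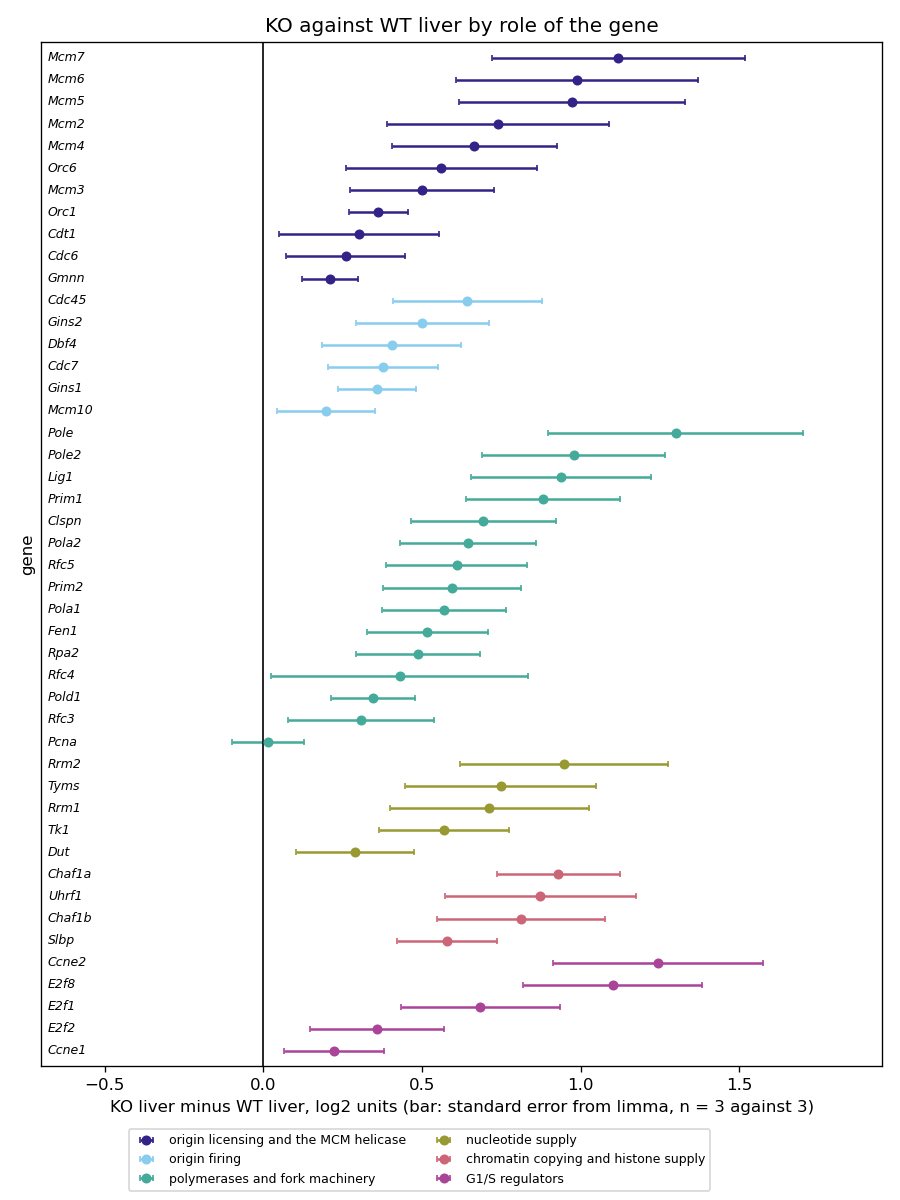
Log2 difference of KO and WT liver means for the 46 genes (points) with the standard error from limma (bars, 3 against 3 arrays), coloured by role. Differences run from 0.02 (Pcna) to 1.30 (Pole), and none passed an adjusted p of 0.05.

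Enzymes of nucleotide supply had a median difference of 0.71. Rrm2, the regulated subunit of ribonucleotide reductase, was at 6.50, 7.48 and 7.49 in WT and at 8.39, 7.72 and 8.20 in KO livers, without overlap (0.95, SE 0.328). Its partner Rrm1 and the thymidylate synthase Tyms differed by 0.71 and 0.75, with KO replicate 2 inside the WT range, and thymidine kinase Tk1 and the dUTPase Dut by 0.57 and 0.29. All 4 genes of chromatin copying and histone supply were higher without overlap, where 19.2% of all genes were. Chaf1a, the large subunit of the chromatin assembly factor that places histones behind the fork, was at 6.41, 6.24 and 6.70 in WT and at 7.60, 7.03 and 7.51 in KO livers. Each KO array exceeded the highest WT array, and its difference of 0.93 (SE 0.194) had the smallest adjusted p of the members (0.104). Chaf1b, Uhrf1, which carries DNA methylation to new strands, and Slbp, which binds histone messages, differed by 0.81, 0.87 and 0.58.

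Among G1/S regulators the 2 E-type cyclins parted. Ccne2 stood at 5.41, 5.89 and 5.82 in WT and at 7.56, 6.32 and 6.98 in KO livers, without overlap (1.24, SE 0.331, adjusted p = 0.130). Ccne1 was at 7.28, 7.23 and 7.45 in WT and at 7.72, 7.21 and 7.69 in KO livers, where KO replicate 2 was the lowest of the 6 (0.22, SE 0.159, adjusted p = 0.430). The difference between the cyclins was not tested. E2f8, an E2F factor that represses transcription late in S phase, was the 1 member besides Mcm10 whose KO replicate 2 was not the lowest KO liver: it was at 6.05, 6.82 and 6.77 in WT and at 7.97, 7.73 and 7.24 in KO livers (1.10, SE 0.282, adjusted p = 0.124). The activators E2f1 and E2f2 differed by 0.68 and 0.36.

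Markers of other cells were read in the same livers, and only some of them varied with these values. The mean of 21 hepatocyte genes was 10.39 and 9.09 in KO replicates 1 and 3 but 12.50 in KO replicate 2. The WT livers were at 11.40, 12.48 and 12.46, so the KO livers with high replication genes were those with low hepatocyte genes. WT replicate 1, the WT liver with the lowest hepatocyte mean, had the lowest mean of the 46 genes (7.31, against 7.46 and 7.59). The mean of 15 endothelial genes was 12.20 and 12.22 in KO replicates 1 and 3, 11.73 in KO replicate 2 and 11.66 to 11.79 in WT livers. T and NK cell genes were at 6.55 to 6.75 in KO livers and at 6.39, 8.64 and 8.54 in WT livers, and B cell genes at 6.27 to 6.43 and 6.40 to 7.47. Erythroid genes were at 6.21 to 6.46 and 6.10 to 6.73. Granulocyte genes were at 6.11, 6.81 and 5.58 in KO replicates 1, 2 and 3 and at 5.70 to 6.13 in WT livers. In KO replicate 2 all 11 of them were above every WT liver (34.5% of all genes). The Kupffer cell list was at 11.42, 11.92 and 11.35 in KO replicates 1, 2 and 3 and at 11.30 to 11.88 in WT livers. The stellate cell list was at 8.27 to 8.86 in KO and at 8.14 to 8.74 in WT livers. Bile duct genes were lower in all 3 KO livers, at 5.89, 5.92 and 5.89 against 6.70, 6.40 and 6.39 in WT livers. The difference was negative in 9 of 9, without overlap in 8, where 11.1% of all genes were lower without overlap. This held in KO replicate 2 as in the others, and none of the 9 passed the adjusted threshold in limma (7 lower at an unadjusted p under 0.05). Of the livers, KO replicate 3 alone showed the Y-linked gene Eif2s3y (8.66, with the others at 3.86 to 4.02); KO replicate 1, also high in the replication genes, did not. The part of these in the result was not tested.

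The 3 AS lines differed among themselves far more than the livers did. AS line 1 was the highest of the lines in all 46 members, where 25.7% of all genes were highest there, and AS line 2 was the lowest in 41 (26.3% of all genes). AS line 1 exceeded AS line 2 at least 2-fold in 42 members (5.01% of all genes) and AS line 3 in 37 (4.72% of all genes), with a median difference of 1.86 from line 2 and 1.41 from line 3. The median range over the 3 lines was 1.91 log2 units for the members, 0.37 for all genes tested, and 0.34 and 0.74 for the members in WT and KO livers. Each line is 1 array, so these differences have no replicate check.

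Ccne2 showed the widest gap: it was at 8.97 in line 1, 5.81 in line 2 and 6.74 in line 3, so that line 2 stood within the WT liver range of 5.41 to 5.89. Pole was at 9.96, 6.90 and 7.95, and E2f8 at 9.79, 6.82 and 8.26. Line 1 exceeded line 2 by 3.16, 3.06 and 2.98 in these genes. At the other end were E2f2, at 7.03, 6.77 and 6.90, and Rrm2, at 11.55, 11.23 and 10.52, where lines 1 and 2 were within 0.26 and 0.32 of each other. Rfc4, a subunit of the clamp loader, was 1 of 5 members for which line 3 was the lowest: it stood at 10.96, 9.91 and 8.24. Its clamp loader partners Rfc3 and Rfc5 kept the common order, at 8.96, 7.52 and 7.74 and at 11.28, 9.55 and 9.90. The mean of the hepatocyte list also set line 2 apart, at 9.80 against 7.85 in line 1 and 7.81 in line 3, while the endothelial list was at 5.99, 6.31 and 6.15; the part of this in the result was not tested.

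**Figure D3:**
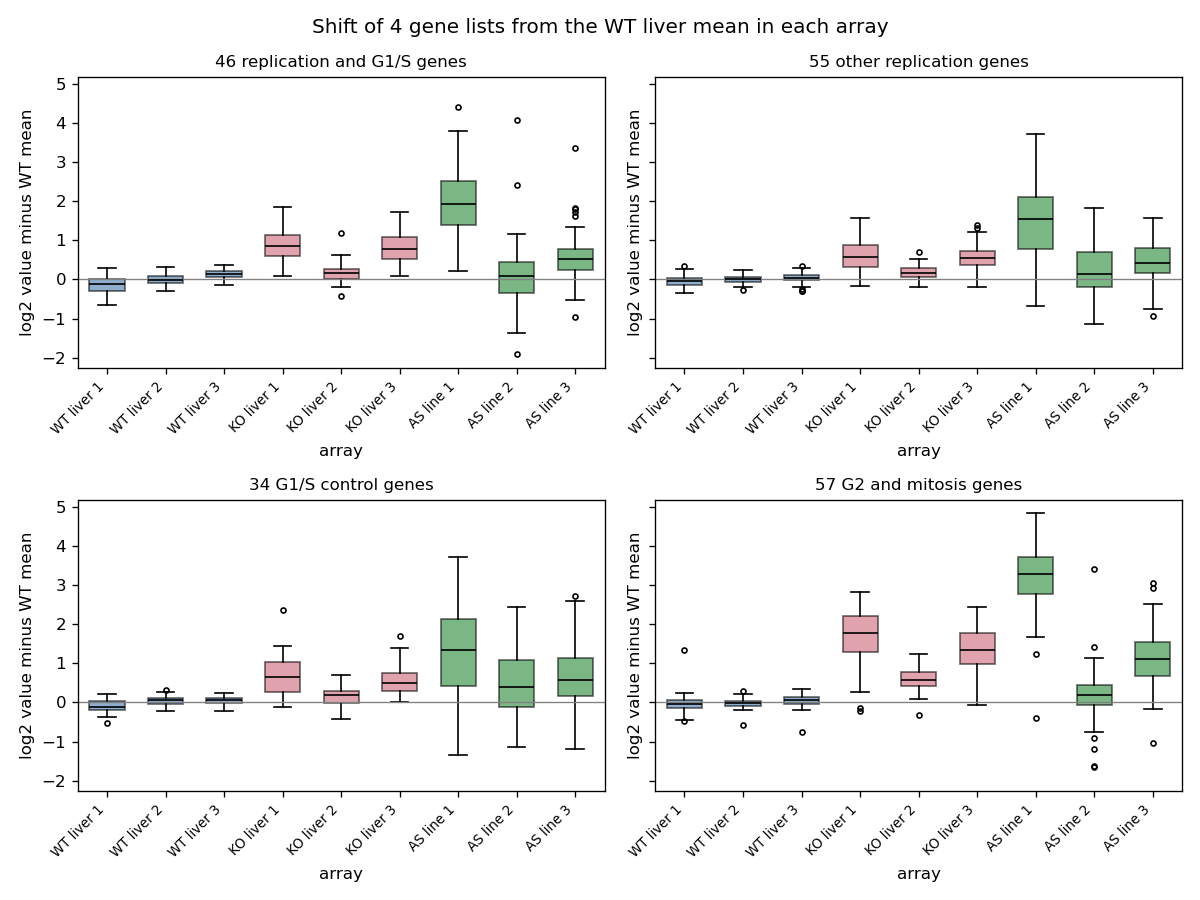
Shift from the WT liver mean (log2 units) of the 46 members and of 3 other cell cycle lists in each array (box: quartiles and median, whiskers to 1.5 times the box, circles beyond). AS line 1 is highest and AS line 2 is near the WT livers in the members (medians 1.92 and 0.08) and in the mitosis genes (3.29 and 0.18), and KO replicate 2 is the lowest KO liver in all 4 panels.

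Against the WT livers, AS line 1 was above every WT array in 46 of 46 members (38.4% of all genes). AS line 3 was above in 36 (45.5% of all genes) and below every WT array in 4 (27.7%), and AS line 2 above in 22 (43.7%) and below in 15 (31.5%). The lines as a group had a higher mean in 42 members, with a median log2 difference of 0.78 against 0.02 for all genes. The member median was 0.26 without AS line 1 and 1.19 without AS line 2. With dim genes left out, it was 0.85 in the 35 members kept, against 0.32 for all genes kept. Past the threshold in limma were 6 members, all higher, or 13.0% of members, where 17.6% of all genes were called higher and 11.1% lower; the members' share is thus not above that of all genes. Before adjustment 14 members had a p under 0.05, all higher (24.7% of all genes higher). All 3 lines were above all WT livers in 22 members, or 47.8%, and 28.3% of all genes were. The comparison shares the WT arrays with that of the KO livers and the AS arrays with the next.

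Rrm2 rose most. From 6.50, 7.48 and 7.49 in the WT livers it went to 11.55, 11.23 and 10.52 in the lines, with no line within 3 log2 units of a WT liver (3.94, SE 0.382, adjusted p = 0.00131, 15.4-fold). The other 5 rises came close to the threshold. Mcm7 rose by 1.92 (SE 0.527, adjusted p = 0.0436), to 10.60, 8.67 and 9.48. Chaf1b was at 7.47, 7.39 and 7.48 in WT livers and at 10.43, 8.61 and 8.67 in the lines, a rise of 1.79 (SE 0.506, adjusted p = 0.0475) with line 1 well above the others. Ccne1, the cyclin that differed little between the livers, rose by 1.60 (SE 0.451, adjusted p = 0.0474), to 9.83 in line 1 and 8.93 in line 3, with line 2 lowest but above all livers. Tk1 was at 10.67, 9.31 and 9.13 and Dut at 9.79, 8.62 and 8.51 in the lines, each above all WT livers, with rises of 1.53 (SE 0.438, adjusted p = 0.0498) and 1.29 (SE 0.361, adjusted p = 0.0465). By role, 3 of the 5 genes of nucleotide supply passed and 0 of the 15 fork genes, a contrast that was not tested. The fork genes Rfc4 and Pole had differences of 2.21 and 2.11 (adjusted p = 0.0599 and 0.0960). Rfc4 and Prim2 passed when all 9 arrays were fitted together, and both passed with Pole when dim genes were left out. With any 1 WT liver left out Rrm2 alone passed, and with the replicate number as a block Rrm2 and Tk1 passed. With AS line 1 left out 10 members passed, 8 higher and 2 lower (Mcm3 and Slbp), against 17.5% and 9.78% of all genes. With AS line 2 left out 9 passed, all higher, against 16.5% of all genes higher and 10.5% lower. The shares of members called higher, 17.4% and 19.6%, were near those of all genes.

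Lower means than in WT livers were seen in 4 members, and none of them passed the threshold: Mcm3 (-0.71), Pcna (-0.47), Slbp (-0.10) and Pola1 (-0.02). Mcm3 was at 9.31, 6.65 and 7.61 in the lines and at 8.62, 8.45 and 8.63 in the WT livers, so line 1 was above and lines 2 and 3 below the WT range. Pcna was at 12.09, 10.80 and 11.37, with line 1 equal to the highest liver and lines 2 and 3 below all livers. Slbp was at 9.59, 8.43 and 8.51 against 8.91, 8.97 and 8.95 in WT livers; its second probe set gave a difference of -0.29. Lines 2 and 3 were below every WT liver in these 3 genes and in Pola2, and 21.4% of all genes were.

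**Figure D4:**
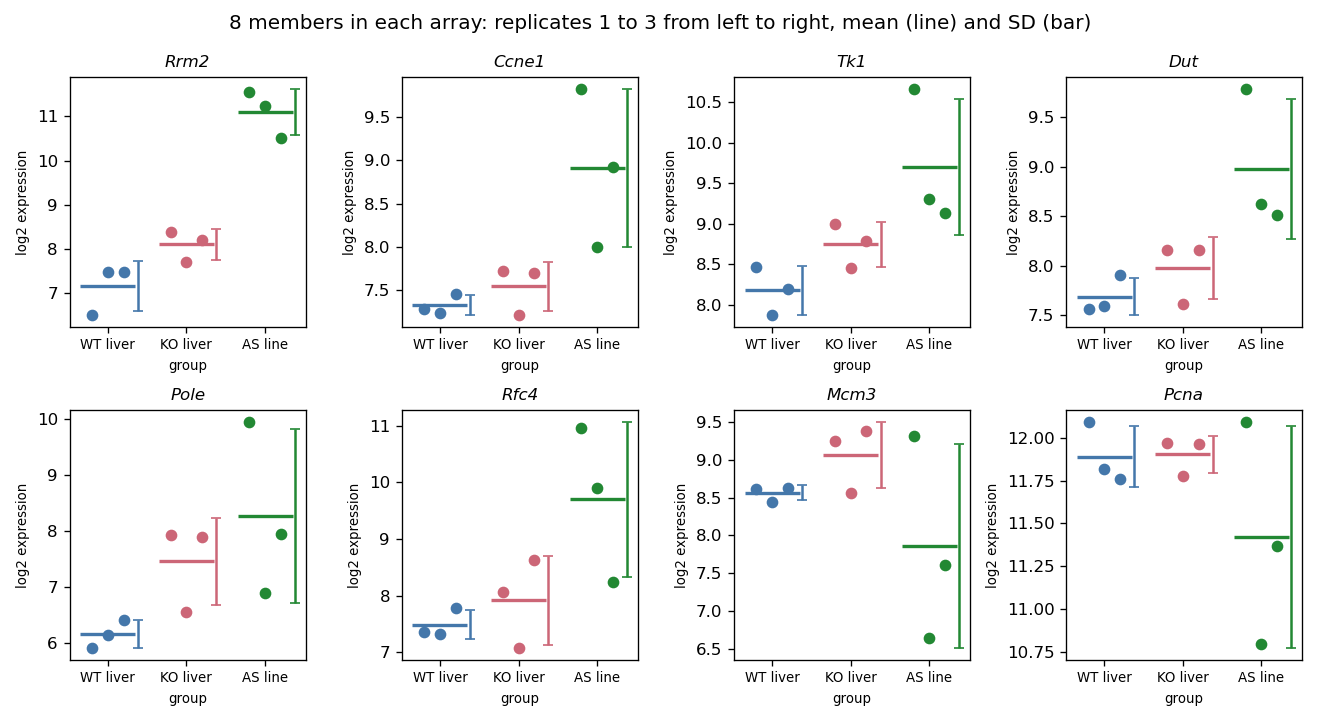
Log2 expression of 8 members in each array, with group mean (line) and SD (bar, n = 3). Rrm2 lies at 10.52 or above in every line, and Mcm3 and Pcna show 1 line (line 1) at liver level and lines 2 and 3 below the WT livers.

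The KO livers share the Notch1 genotype of the lines, and against them the replication genes were not set apart. The median log2 difference of the members was 0.21, against 0.05 for all genes, with 32 higher and 14 lower (60.9% of all genes were higher). It was -0.28 without AS line 1, 0.60 without AS line 2 and -0.14 with array weights, so its sign changed with the line left out or weighted down. With dim genes left out, it was 0.195 in the 38 members kept, against 0.141 for all genes kept. Rrm2 was the only member past the threshold (1 of 46, or 2.17%, where 11.4% of all genes were called higher and 10.1% lower): it rose from 8.39, 7.72 and 8.20 in the KO livers by 2.99 (SE 0.320, adjusted p = 0.00317). Without AS line 1, Mcm3 and Slbp passed as lower besides Rrm2 as higher, and without AS line 2, Ccne1 passed besides Rrm2. All 3 lines were above all livers of both genotypes in 5 members, namely Rrm2, Ccne1, Tk1, Dut and Gmnn, or 10.9%, where 19.8% of all genes were. The same 5 were the members without overlap against the KO livers alone (24.1% of all genes higher and 16.7% lower), and 0 members had all lines below every liver (13.3%). Against the KO livers the last 4 differed by 1.37, 0.96, 1.00 and 0.44. AS line 1 alone was above all 6 livers in 43 members (32.0% of all genes). In Mcm3 the KO livers, at 9.24, 8.56 and 9.39, overlapped with line 1 and were above lines 2 and 3 (difference of group means -1.21, SE 0.707, adjusted p = 0.304).

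The MCM2-7 ring works as 1 complex with each of its 6 subunits once. The subunits were shifted from the WT livers by more similar amounts in the KO livers than in the lines. Taking each subunit's shift from its own WT mean, the gap between the highest and lowest subunit was 0.31 to 0.59 in WT livers and 0.88, 0.41 and 0.63 in KO replicates 1, 2 and 3. It was 2.20, 2.93 and 2.77 in AS lines 1, 2 and 3. The WT gaps are kept small by the measure, since each shift is taken from the WT mean. In all 6 subunits line 1 was the highest line and line 2 the lowest. The gap in the lines thus holds offsets from the livers that the lines share. Gaps for other sets of genes were not computed. In every line Mcm7 was at the top and Mcm3 at the bottom of the 6. The order was not particular to the lines. KO replicate 1 and WT replicate 3 had the same top and bottom subunits, with gaps of 0.88 and 0.31. Mcm7 was also at the top in KO replicate 2, and Mcm3 at the bottom in KO replicate 3. Mcm7 was shifted by 2.94, 1.01 and 1.81 in lines 1, 2 and 3, Mcm2 by 2.10, 0.51 and 1.02, and Mcm3 by 0.74, -1.92 and -0.95. Mcm6, Mcm4 and Mcm5 lay between them, at 2.08, 1.93 and 1.72 in line 1 and at -0.28, -0.85 and -1.15 in line 2. This pair was singled out after its values were seen and has no test. Genes with an E2F-type match went both ways in line 2, and so did genes without. Of those printed with matches, Mcm5, Mcm6 and Pola1 were shifted by -1.15, -0.28 and -1.37, and E2f8 and Chaf1a by 0.27 and 0.09. Of those without a match, Rrm2 was shifted by 4.07 and Pcna by -1.09. The 21 genes with a match had a median difference between AS line 1 and AS line 2 of 1.93, the 18 without a match one of 1.69 and the 7 without a window one of 2.79. Between KO and WT livers these medians were 0.71, 0.57 and 0.59.

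**Figure D5:**
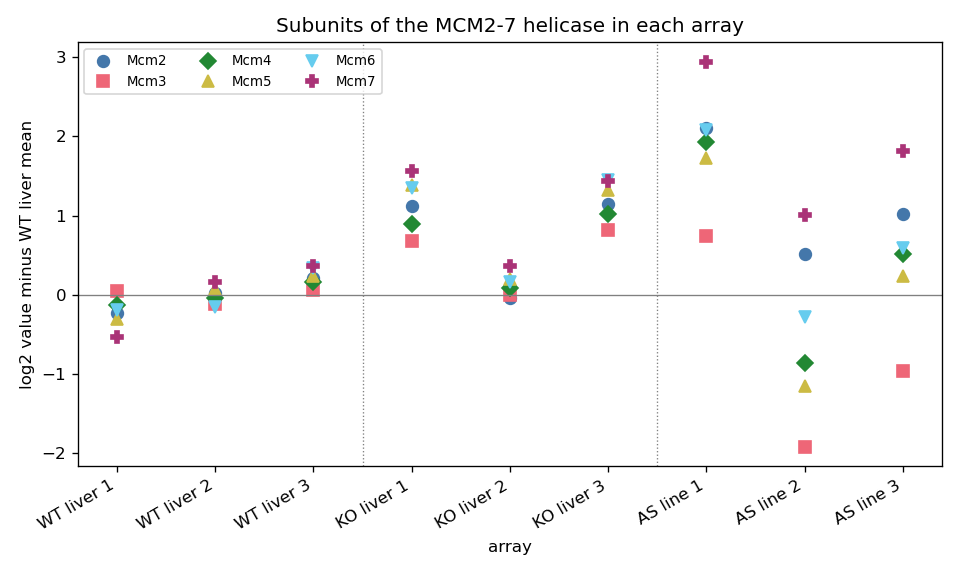
Shift of the 6 MCM2-7 subunits from their own WT liver means (log2 units) in each array, 1 point a subunit. The subunits lie within 0.88 log2 units of each other in every liver and spread over 2.20 to 2.93 in the lines. Mcm7 is at the top and Mcm3 at the bottom in every line, and also in KO replicate 1 and WT replicate 3.

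Other genes of the pathway were read from 3 lists. Of 55 further replication and chromatin copying genes, 53 had a higher mean in KO livers (median 0.47). None passed the threshold in limma, and 32 were higher and 0 lower at an unadjusted p under 0.05 (17.3% and 5.17% of all genes). In 30 the groups were without overlap, all higher, where 19.2% of all genes were. The largest difference was that of Tipin, a fork protection factor, at 1.05 (SE 0.314, adjusted p = 0.147), followed by the histone chaperone Asf1b (0.97) and the helicase Hells (0.93). Against the WT livers, 8 of the 55 rose in the lines and 1 fell, a share of risers below the 17.6% of all genes. They included 4 of the 4 measured remaining subunits of the origin recognition complex, Orc2, Orc3, Orc4 and Orc5, by 1.52, 0.83, 0.99 and 0.92, while the members Orc1 and Orc6 differed by 0.54 and 0.58 and did not pass. Topoisomerase Top1 fell by 0.71. Against the KO livers 2 rose and 1 fell, where 11.4% of all genes were called higher and 10.1% lower. Rnaseh2a, which removes RNA from DNA, rose by 1.10 (SE 0.118, adjusted p = 0.00324 in limma). It was at 9.20 to 9.49 in KO livers and at 10.31 to 10.59 in the lines.

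The G1/S control list of 34 cyclins, kinases, inhibitors and pocket proteins had a median of 0.40 between KO and WT livers, with 32 positive. None passed the threshold in limma, and 15 were higher and 0 lower at an unadjusted p under 0.05 (17.3% and 5.17% of all genes). Fbxo5, an inhibitor of the anaphase-promoting complex, differed by 1.43 (adjusted p = 0.204), the kinase inhibitor Cdkn2c by 1.13 (adjusted p = 0.102) and the pocket protein Rbl1 by 0.95 (adjusted p = 0.109). In the lines 11 of the 34 rose and 1 fell against WT livers, where 17.6% and 11.1% of all genes did, and 7 rose and 3 fell against KO livers (11.4% and 10.1% of all genes). Cks1b, a cyclin kinase subunit, was at 10.71 in line 2, the lowest line, and at 7.99 to 8.51 in WT livers, a rise of 2.96 (SE 0.358, adjusted p = 0.00283). Cdk6, a partner of D-type cyclins, rose by 2.06 and the inhibitor Cdkn2b by 2.25 (adjusted p = 0.00263 and 0.000601), with Cdkn2b at 8.77, 8.75 and 9.26 in lines 1, 2 and 3. Rb1, the pocket protein that holds E2F factors, fell by 0.88 against WT and by 1.61 against KO livers, and was at 8.30, 9.08 and 8.91 in the lines.

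The 57 G2 and mitosis genes had larger differences than the replication genes in the same direction. Between KO and WT livers their median was 1.25. Of the 57, 54 did not overlap, all higher, against 19 of 46 members and 19.2% of all genes. KO replicate 2 was above every WT liver in 55 of them, in 19 members and in 34.5% of all genes. Ccna2, the cyclin of S phase and G2, was at 7.22, 7.38 and 7.49 in WT and at 10.13, 8.46 and 9.69 in KO livers. None passed the threshold in limma, and 54 were higher and 0 lower at an unadjusted p under 0.05 (17.3% and 5.17% of all genes). Median shifts in AS lines 1, 2 and 3 were 3.29, 0.18 and 1.10. Against WT livers Anln, a protein of the cytokinetic ring, rose by 3.73 (SE 0.492, adjusted p = 0.00378 in limma). Ect2, a regulator of cytokinesis, rose by 2.83 (SE 0.781, adjusted p = 0.0444). These were the only 2 of the 57 past the threshold there, where 17.6% of all genes were called higher. Against KO livers none passed, where 11.4% of all genes were called higher. There 1 was higher and 0 lower at an unadjusted p under 0.05 (19.3% and 14.6% of all genes).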

How the data were processed

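The series holds 9 mouse arrays, 3 per group, labelled with a whole-transcript kit. The deposited values are log2 expression of 35556 probe sets, made with RMA and oligo, with no version named, per the submitters' processing notes. Array medians ran from 6.53 to 6.63, as after joint normalization, so a shift of most genes at once cannot be seen. The 75th percentiles were less alike. They were 8.48, 8.61 and 8.64 in WT livers, 8.73, 8.76 and 8.73 in KO livers and 8.76, 8.71 and 8.66 in the lines. A low value can be background, where differences are understated. The number of arrays limits the precision.

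Probe sets were named from the platform annotation: 21789 had 1 gene symbol, 1621 several and 12146 none. The probe set with the highest mean stood for a gene, which left 19938 genes. Of the 46 members, 3 (Pcna, Tk1 and Slbp) had more than 1. Each comparison was a 2-sided limma 3.58.1 fit (lmFit, eBayes; R 4.3.3) of its own 6 arrays. Adjusted p-values are Benjamini-Hochberg values over the 19938 genes, and the threshold was 0.05. Whether livers of a group came from separate litters is not given, and p-values measure the spread between these arrays. The fit was tested on simulated data.

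The members and all gene lists were chosen with earlier results of these data known, so lists are described by counts and medians without a test. Named genes are all members, Notch1 and, from the 3 other cell cycle lists, the 3 largest differences of a comparison; Orc2 to Orc5, Top1, Rb1, Alb, Cdh5, Krt19 and Eif2s3y were named after their values were seen. Promoters were RefSeq windows of GRCm38.p6. Figures were drawn with matplotlib 3.10.9. Other settings tried were 1 fit of all 9 arrays, the replicate number as a block, an intensity trend with robust variances, leaving out dim genes, 75th percentile scaling, the mean of all probe sets, array weights, leaving out each replicate and at least a 2-fold change.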

Additional observations from a re-analysis of the deposited data

How the results depend on the processing

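Fitting all 9 arrays at once gave 2 calls over all genes for KO against WT livers and 2 members (Rrm2 and Ccne1) for AS lines against KO livers. Array weights gave 39 members and 5744 genes for KO against WT livers, 12 members for AS lines against WT livers, and a member median of -0.14 for AS lines against KO livers. For AS lines against WT livers, leaving out the genes below the median brightness gave 10 of the 35 members kept, all higher. Over all genes kept, 3195 were called higher and 1630 lower. A floor of 2-fold left 2638 genes for AS lines against KO livers and 3492 for AS lines against WT livers. With 75th percentile scaling the difference of Pcna between KO and WT livers was -0.17, the median of all genes moved to -0.18 there and to -0.19 for AS lines against WT livers, and calls in the latter split into 2476 higher and 2884 lower, against 3506 and 2209. The member median with this scaling was 0.405 for KO against WT livers. It was 0.573 for AS lines against WT livers and 0.178 for AS lines against KO livers. The cause of these changes was not tested.

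Leaving out 1 array at a time gave 0 to 28 members, 0 to 1949 genes and a Pcna difference of -0.05 to 0.12 for KO against WT livers. For genes, 60 were called without WT replicate 1 and 1949 without KO replicate 2. It gave 1 to 3 members, 2281 to 4048 genes and a member median of -0.28 to 0.60 for AS lines against KO livers, and 1 to 10 members and 3397 to 5435 genes for AS lines against WT livers. The member medians of KO against WT livers (0.45 to 0.85) and of AS lines against WT livers (0.26 to 1.19) kept their sign.

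The correlation of same-numbered deviations from the group means was 0.31, 0.43 and -0.39 between KO and WT livers. With 3 arrays a group these deviations are not independent, so whether replicate numbers pair the samples cannot be told from them. With the replicate block 2 members were called for AS lines against WT livers, 1 for AS lines against KO livers and 0 for KO against WT livers. With 3 arrays a group and no second array of any line, differences between single lines or single livers have no error of their own.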
